A study of Bos taurus with 14 samples.

Results

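The genes examined here encode the nuclear part of respiratory complex I, the first enzyme of the mitochondrial electron transport chain. They were taken by name, as every gene whose symbol begins with NDUF and that had any reads, which gave 47 of the 18078 genes in the count table. The 47 comprise 7 core subunits of the matrix arm, 9 accessory subunits of the matrix arm, 20 accessory subunits of the membrane arm, the acyl carrier protein NDUFAB1, which sits in both arms, 8 assembly factors named NDUFAF, and NDUFA4 with its paralog NDUFA4L2. All 47 passed the filter on low counts, so no gene of the set dropped out of the 12187 that were tested.

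Complex I takes electrons from NADH, passes them along a chain of iron-sulfur clusters in the matrix arm to ubiquinone, and couples this to proton pumping in the membrane arm. The core subunits carry out the chemistry and are shared with bacteria, whereas the accessory subunits surround and stabilise the core. Assembly factors join intermediates together and leave before the enzyme is finished. In skeletal muscle the complex supplies oxidative fibres in particular, and its membrane core is encoded by the mitochondrial genome; those mitochondrially encoded subunits were not analysed here.

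RNA was measured by sequencing of the longissimus dorsi, the long back muscle, of 14 female cattle (Bos taurus) slaughtered at postnatal day 485, with each sample labelled as a separate animal. The restricted group (n = 7) came from dams fed below their nutrient requirement from gestational day 158 until calving, and the control group (n = 7) from dams fed 100% of requirement over that time. The restricted level is given as 70% in the series design and as 50% in the treatment protocol, so no level is used here. All calves were managed alike after birth, with free access to feed from postnatal day 301, the labels name no genotype or breed, and kinship between the animals is not stated. Replicate numbers only name animals, and p-values measure the spread between animals as labelled. Sample titles begin with R or Y and end in A or B, with no stated meaning. Restricted 1, 2 and 7 and control 2 and 4 end in B, and restricted 1 and control 1 and 2 begin with R.

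Depth ran from 13631018 to 17325779 counts per animal. Markers of both fibre types were abundant, with summed fast fibre markers at 124530 to 158727 counts per 1000000 (CPM) in restricted animals and 123371 to 149443 CPM in controls. Summed slow fibre markers stood at 25258 to 38354 CPM in restricted animals and 21290 to 40264 CPM in controls. Complex I genes took 0.504% ± 0.0529 of all counts in restricted animals and 0.496% ± 0.0311 in controls (SD, n = 7 each). In whole muscle, fewer cells of a type and less RNA per cell cannot be told apart.

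Subunits were expressed well above the factors that assemble them. Levels are compared between genes as transcripts per 1000000 (TPM), which divides counts by the deposited gene length. The median level was 321 TPM over the core subunits, 140 TPM over the accessory subunits of the matrix arm and 255 TPM over those of the membrane arm, against 29.6 TPM over the 8 NDUFAF factors. The 35 genes of complexes II to V found under the names searched had a median of 514 TPM.

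Among the core subunits, NDUFV2 was the most abundant at 511 ± 48.8 TPM and NDUFS8 the least at 129 ± 22.8 TPM (SD, n = 14). NDUFV2 and NDUFV1 belong to the module that oxidises NADH, and NDUFS8 holds iron-sulfur clusters near the end of the electron path. NDUFV1, which binds NADH and the flavin, averaged 196 ± 21.2 TPM, below its partner NDUFV2. Transcripts of subunits that the finished enzyme holds in equal numbers thus differed several fold on this scale.

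Accessory subunits of the matrix arm ran from 59.7 ± 11.2 TPM for NDUFA12, a paralog of the assembly factor NDUFAF2, to 275 ± 22 TPM for NDUFA5. NDUFS4, whose loss in humans causes Leigh syndrome, stood at 107 ± 10.9 TPM. Accessory subunits of the membrane arm spanned 89.2 ± 6.60 TPM for NDUFS5 to 459 ± 48.1 TPM for NDUFA1, a small membrane protein. NDUFAB1, which also serves mitochondrial fatty acid synthesis, had 323 ± 42.0 TPM.

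The assembly factors covered a range of their own. NDUFAF3, which with NDUFAF4 acts on an early intermediate, was the highest at 92.2 ± 10.5 TPM, followed by NDUFAF8 at 58.8 ± 9.48 TPM. NDUFAF5, which hydroxylates the core subunit NDUFS7, was the lowest at 11.8 ± 1.63 TPM and NDUFAF2 stood at 12.4 ± 2.36 TPM. The 12 other assembly factors listed under other names had a median of 30.1 TPM, from 2.55 TPM for ACAD9, a member of the acyl-CoA dehydrogenase family, to 237 TPM for TMEM126A.

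NDUFA4 had the highest level of the 47 genes, at 841 ± 97.0 TPM. Its protein was first counted as a complex I subunit and is now placed in complex IV. NDUFA4L2, a paralog known to be induced by hypoxia, was the lowest at 3.61 ± 1.64 TPM, with 10 to 47 reads per animal.

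**Figure D1:**
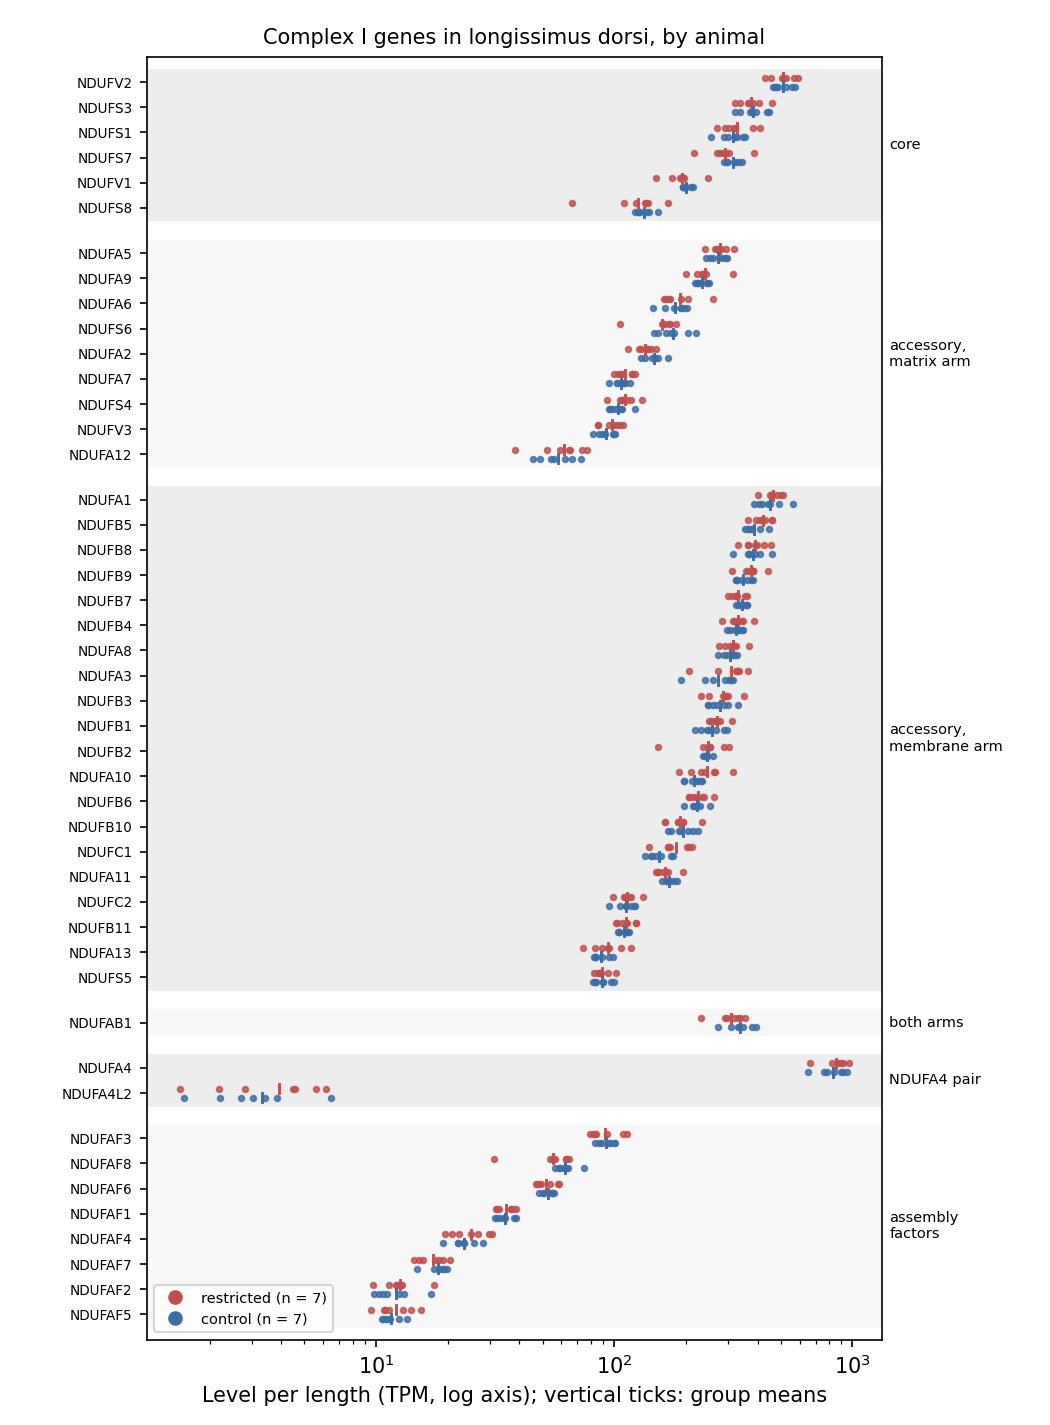
Level of each complex I gene in TPM (log axis) in 7 restricted animals, drawn above, and 7 control animals, drawn below, with a vertical tick at each group mean and genes ordered by level within their role. Most subunits lie between 89.2 and 511 TPM, the NDUFAF factors lie at or below 92.2 TPM on average, and the animals of both diets overlap for every gene.

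No complex I gene differed between the diets once p-values were adjusted over all genes. With Benjamini-Hochberg adjustment at 0.05, edgeR's quasi-likelihood test called 0 of the 47, against 0 of 12187 genes tested (0%); the smallest adjusted p was 1.0 among the 47 and 0.847 over all genes. DESeq2 and limma voom with quality weights also called 0 of the 47, against 1 of 17885 and 0 of 12187 genes tested. At an unadjusted p under 0.05, 2 of the 47 passed, against 4.25% of all genes tested, so the share was near the background. Both were higher in restricted animals, where 2.17% of all genes passed in that direction, and 0 of the 47 were lower, against 2.08%. The 95% interval of the ratio lay within 1.5-fold either way for 46 of the 47, against 77.8% of all genes, and the exception was NDUFA4L2 at low counts.

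Most of the estimates leaned the same way. The ratio of restricted over control was above 1 for 36 of the 47 genes, against 49.7% of all genes tested, with a median log2 fold change of 0.078 against -0.00079 over all genes. Most of the 47 follow each other between animals, so the count of 36 is not one of independent genes. The same holds for the later counts of direction by title letter and by MYH7. By role, the ratio was above 1 for 4 of 7 core subunits, 7 of 9 accessory subunits of the matrix arm, 17 of 20 of the membrane arm, both genes of the NDUFA4 pair and 6 of 8 NDUFAF factors. NDUFAB1 was below 1, at 0.946 (95% interval 0.819 to 1.09). Leaving out restricted 1, whose complex I levels stood highest, gave 32 of 47 and a median of 0.033, against 49.8% of all genes. Scaling by library size gave 32 of 47 and 0.033, where the median of all genes moved to -0.050 and 33% of all genes had a ratio above 1.

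**Figure D2:**
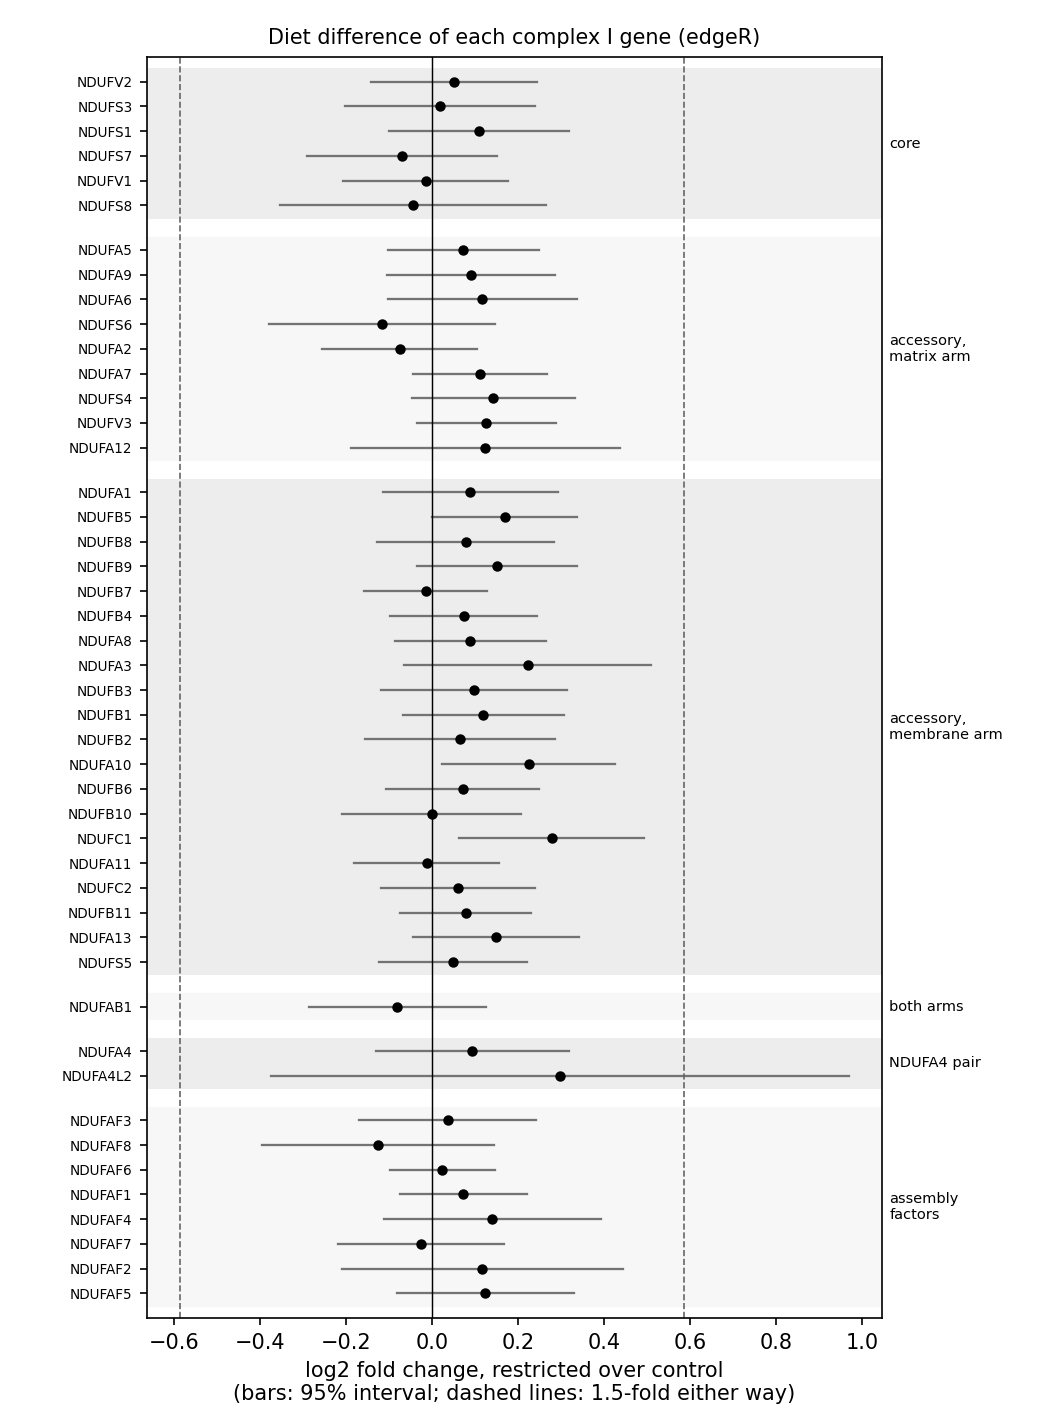
Log2 fold change of each complex I gene, restricted over control, with its 95% interval from edgeR (7 animals each), in the same order as the levels; dashed lines mark 1.5-fold either way. Of the 46 genes drawn, 35 lie above 0, the intervals of NDUFC1 and NDUFA10 lie wholly above 0, and the interval of NDUFA4L2 is the widest.

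The 3 genes with the smallest p among those higher in restricted animals were all accessory subunits of the membrane arm. NDUFC1 (ENSBTAG00000039582), a small subunit, had 49.0, 60.3 and 70.5 CPM as its lowest, median and highest values in restricted animals, against 43.4, 45.9 and 61.4 CPM in controls. All 7 restricted animals lay above the control median, but the groups overlapped, since control 1, 3 and 5 lay among the restricted values. The ratio was 1.21 (95% interval 1.04 to 1.41, unadjusted p = 0.0144 by edgeR's quasi-likelihood test).

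NDUFA10 (ENSBTAG00000003279), which resembles nucleoside kinases, had 129, 159 and 210 CPM in restricted animals, against 122, 137 and 156 CPM in controls (lowest, median and highest). Restricted 1, 4, 6 and 7 lay above every control and restricted 2 lay below the control median. Its ratio was 1.17 (1.02 to 1.34, unadjusted p = 0.0307 by edgeR's quasi-likelihood test). Without restricted 1 the log2 fold change was 0.15 instead of 0.22, with an unadjusted p = 0.088 by edgeR's quasi-likelihood test. NDUFB5 (ENSBTAG00000002463), another subunit of the membrane arm, had 189, 208 and 232 CPM in restricted animals and 159, 181 and 228 CPM in controls, with a ratio of 1.12 (unadjusted p = 0.0501, edgeR). All 7 restricted animals were above the control median of NDUFB5, and control 1, 3 and 5 lay within the restricted range.

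Among estimates below 1, the smallest p-values were far from the threshold. NDUFAF8 (ENSBTAG00000053886), which works with NDUFAF5 in assembly, had 18.1, 32.5 and 37.7 CPM in restricted animals and 29.8, 32.9 and 43.6 CPM in controls (ratio 0.916, 95% interval 0.760 to 1.1, unadjusted p = 0.337, edgeR). The low value was restricted 4 and the high one control 3. Without restricted 4 the log2 fold change of NDUFAF8 was -0.03 instead of -0.13. NDUFS6, a zinc-binding subunit beside the NADH module, had 62.8, 95 and 109 CPM in restricted animals and 75.8, 94.7 and 132 CPM in controls, with a ratio of 0.922 (unadjusted p = 0.359, edgeR). The NDUFS6 medians nearly coincided, and without control 3 the log2 fold change was -0.04 instead of -0.12. NDUFA2, with a thioredoxin-like fold, had 29.2, 33.4 and 38.1 CPM in restricted animals and 30.0, 36 and 41.7 CPM in controls, with 1 restricted animal above the control median and a ratio of 0.949 (unadjusted p = 0.384, edgeR).

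**Figure D3:**
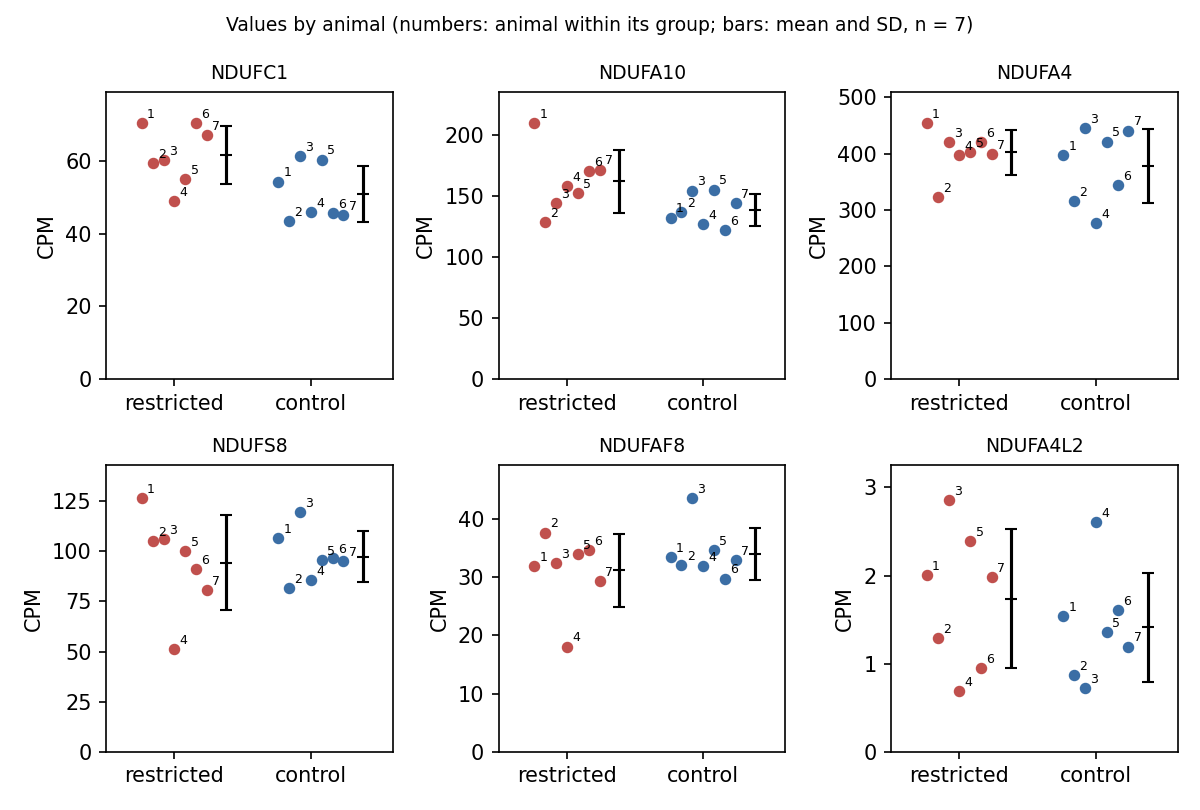
CPM of 6 complex I genes in each of 7 restricted and 7 control animals, numbered within the group, with bars for the mean and SD. All restricted points of NDUFC1 lie above the control median of 45.9 CPM, restricted 1 stands at 210 CPM of NDUFA10, and restricted 4 is the lowest point of NDUFS8 and NDUFAF8.

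The core subunits showed no separation of the diets. NDUFS1, the largest core subunit, had 418, 471 and 614 CPM in restricted animals and 391, 452 and 533 CPM in controls. The highest value of NDUFS1 was that of restricted 1, and the groups overlapped. NDUFV2 had 220, 244 and 292 CPM in restricted animals and 204, 237 and 295 CPM in controls.

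For NDUFV1 the values were 184, 228 and 297 CPM in restricted animals and 207, 236 and 259 CPM in controls. NDUFS7, which carries the last iron-sulfur cluster before ubiquinone, had 147, 193 and 255 CPM in restricted animals and 171, 214 and 223 CPM in controls. In restricted animals NDUFS3 had 131, 149 and 184 CPM, against 113, 142 and 181 CPM in controls. In NDUFV1 and NDUFS7 both the lowest and the highest of the 14 values belonged to restricted animals. Core ratios ran from 0.952 (NDUFS7) to 1.08 (NDUFS1), and each 95% interval included 1.

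Genes around complex I gave a similar account. Over all genes tested, 49.7% had a ratio above 1 and 4.25% had an unadjusted p under 0.05. Of the 12 other assembly factors, 8 had a ratio above 1 and 0 passed an unadjusted p under 0.05. For complexes II to V, 28 of 35 had a ratio above 1 with a median log2 fold change of 0.054, and again 0 passed an unadjusted p under 0.05. Most of these 35 follow the complex I subunits between animals, so their counts are not of independent genes. Among 15 regulators of mitochondrial biogenesis, 8 had a ratio above 1 and TFB1M, a methyltransferase of mitochondrial ribosomal RNA, had the only unadjusted p under 0.05. Its ratio was 1.15 (95% interval 1.04 to 1.27, unadjusted p = 0.00711 by edgeR's quasi-likelihood test). PPARGC1A, the coactivator that drives mitochondrial biogenesis, had 14.9, 23.1 and 33.4 CPM in restricted animals and 20.3, 25.9 and 30.2 CPM in controls (lowest, median and highest), with a ratio of 0.945 (0.759 to 1.18).

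The diet estimates were also taken within each last letter of the title. Among the 9 animals whose titles end in A (4 restricted and 5 control), 25 of the 47 ratios were above 1, the median log2 fold change was 0.0020 and 0 genes had an unadjusted p under 0.05 (487 of 12219 genes tested). Over all genes tested in those animals, 50.2% had a ratio above 1, with a median of 0.00067. Among the 5 animals whose titles end in B (3 restricted and 2 control), all 47 ratios were above 1 and the median was 0.27. This split was added after the data were seen. Over all genes tested in the B animals, 49.8% had a ratio above 1, with a median of -0.0015. Of the 47, 8 had an unadjusted p under 0.05 (584 of 12637 genes tested). After adjustment 0 of the 47 were called, against 1 of 12637 genes. NDUFC1 had a log2 fold change of 0.14 among titles ending in A and 0.56 among those ending in B.

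The difference between these subsets was then tested itself, as the diet by letter term of edgeR's quasi-likelihood test over all genes, also added after the data were seen. After adjustment 0 of the 47 were called, against 0 of all genes (0%), with a smallest adjusted p of 0.933 among the 47. An unadjusted p under 0.05 was reached by 8 of the 47, against 5.06% of all genes tested, among them NDUFB8, NDUFB5, NDUFB11, NDUFA4, NDUFS5, NDUFV1 and NDUFA11, and in each the estimate was higher among titles ending in B. The term was above 0 for 45 of the 47, against 50.4% of all genes, with a median of 0.28. For NDUFB8, a subunit of the membrane arm, it was 0.47 ± 0.18 (standard error, log2; unadjusted p = 0.0199, edgeR).

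These counts rested in part on few animals. Without restricted 1 the term was above 0 for 39 of the 47 with a median of 0.16 and 1 unadjusted p under 0.05 (4.38% of all genes tested). Without control 4 it was 46 of 47 with a median of 0.31 and 1 unadjusted p under 0.05 (3.63% of all genes). Leaving out restricted 5, control 1, control 2 or control 3 left 3 genes with an unadjusted p under 0.05, where the share over all genes was 4.57% to 5.14%. Without restricted 4 there were 4 (5.6% of all genes), and without restricted 2 there were 15 (7.04% of all genes). Complexes II to V had the term above 0 for 35 of 35 genes, with a median of 0.31 and 7 at an unadjusted p under 0.05. The shares over all genes tested were 50.4% and 5.06%. What the letter stands for was not tested.

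The letter was also set against the levels themselves with diet in the model. By edgeR's quasi-likelihood test, 0 of the 47 differed between titles ending in B and in A after adjustment, against 0 of all genes (0%), and 3 had an unadjusted p under 0.05, against 5.92% of all genes tested. These were NDUFA4 (log2 fold change -0.24), NDUFB1 (-0.19) and NDUFA2 (-0.19), all lower in B, where 2.12% of all genes passed in that direction. Estimates were lower in B for 33 of the 47, against 50.9% of all genes, with a median of -0.087. With library size scaling 27 of the 47 were lower in B with a median of -0.016. The median of all genes then moved to 0.067, with 70.2% of all genes higher in B. Without restricted 1 the count lower in B was 43 of the 47, with 13 at an unadjusted p under 0.05, against 804 of 12250 genes tested. Of all genes in that setting, 51% were higher in B.

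Markers of other cell types were described by letter as well, with no test given. Of all genes tested, 49.1% had an estimate above 0 in B over A. Estimates in B over A were above 0 for 5 of 5 fibroblast markers (median log2 fold change 0.71), 5 of 5 adipocyte markers (0.49), 8 of 8 markers of smooth muscle and pericytes (0.13), 4 of 5 macrophage markers (0.26) and 4 of 5 endothelial markers (0.11). Summed fibroblast markers stood at 559 to 929 CPM in titles ending in B and 319 to 630 CPM in those ending in A. Summed adipocyte markers stood at 76.7 to 168 CPM in B and 10.7 to 151 CPM in A, and summed markers of smooth muscle and pericytes at 205 to 298 CPM in B and 177 to 263 CPM in A. Summed macrophage markers stood at 11.0 to 24.5 CPM in B and 9.42 to 19 CPM in A, and endothelial markers at 148 to 248 CPM in B and 139 to 206 CPM in A. The ranges overlapped for all 5 lists, and their part in the complex I values was not tested.

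In some animals most of the subunits stood high or low together. Restricted 1 had the highest value of the 14 in 29 of the 47 genes (61.7%), against 7.75% of all genes tested, and its 37 subunits deviated from the median of the other animals by a median of 0.26 on the log2 scale. Control 2 had the lowest value in 15 of the 47 (31.9%), against 6.56% of all genes, with a subunit deviation of -0.24. Control 4 deviated by -0.20 and control 6 by -0.18, while the rest lay between -0.10 and 0.16. The highest deviation was thus that of a restricted animal, and the lowest were those of control 2, 4 and 6. Next to these came control 3 at 0.16 and restricted 2 at -0.10. Restricted 1 and control 2 and 4 all have titles ending in B. The titles of restricted 1 and control 2 also begin with R, as does that of control 1, whose subunits deviated by 0.096.

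**Figure D4:**
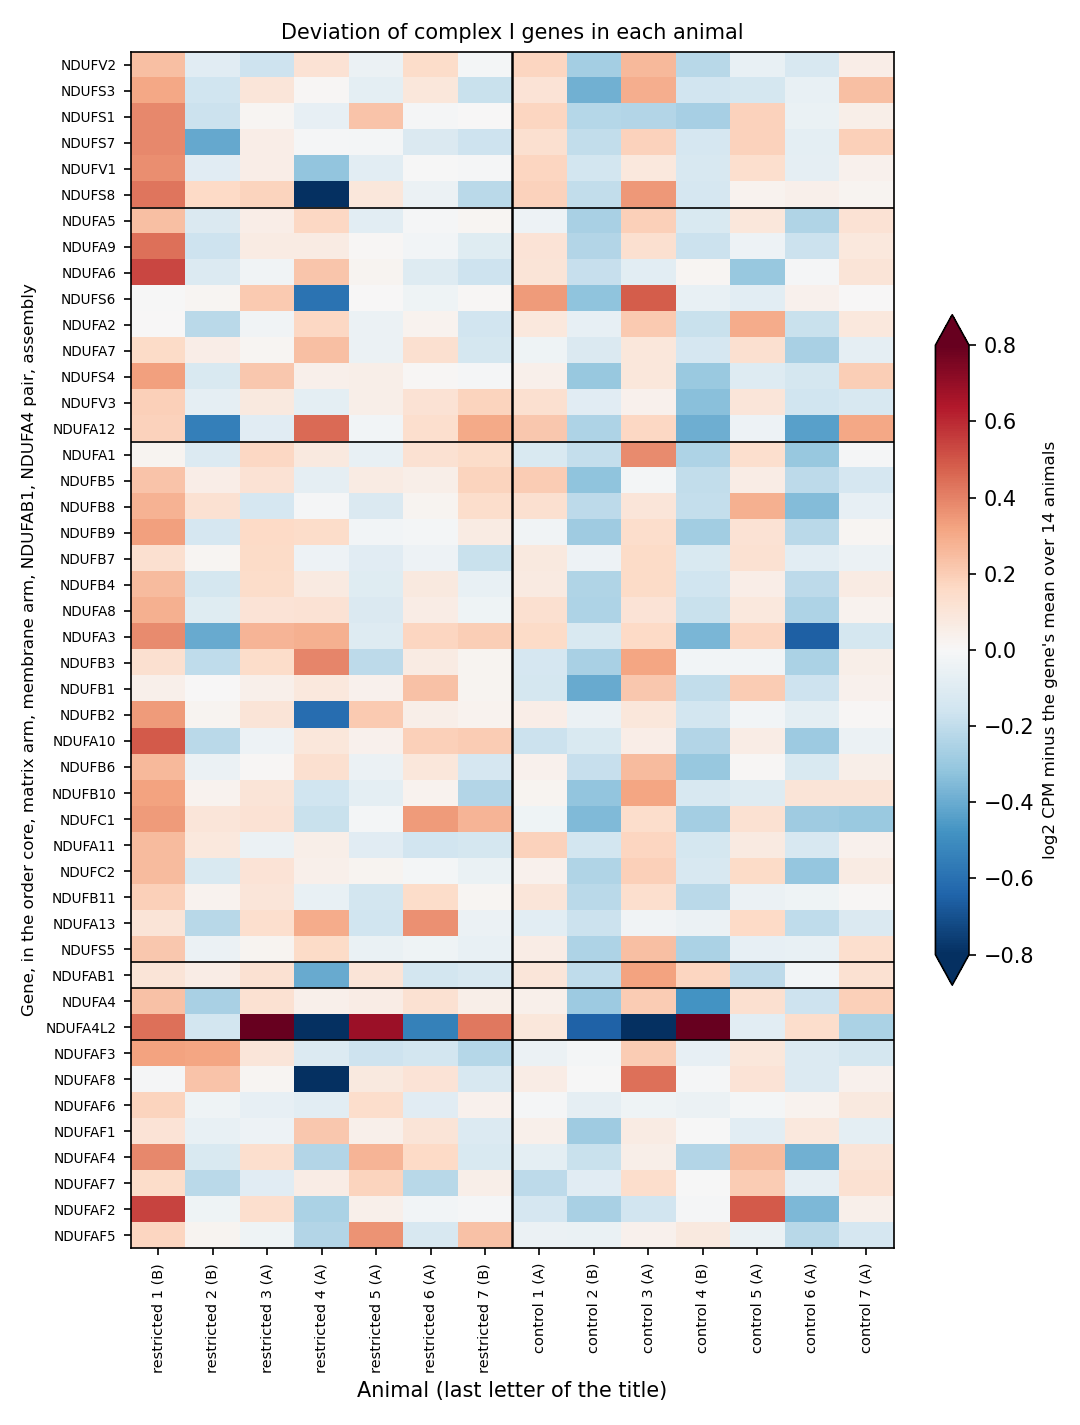
Deviation of each complex I gene (down the page, grouped by role) in each animal (restricted left, control right, last letter of the title in brackets) from the gene's mean over 14 animals, in log2 CPM. Restricted 1 is raised across most genes, control 2 and 4 are lowered across most genes, and restricted 4 shows a few strongly lowered genes.

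In restricted 4 the subunits deviated by a median of 0.047. More than 0.5 below the median of the other animals on the log2 scale lay 5 of the 47 genes, a share near the 10.3% of all genes in that animal, and 0 of the 47 lay as far above, against 5.14% of all genes. The 5 were NDUFA4L2 (-1.03), NDUFS8 (-0.91), NDUFAF8 (-0.86), NDUFB2 (-0.64) and NDUFS6 (-0.59). The SD of the deviations over the 47 genes was 0.33 in restricted 4 and between 0.13 and 0.22 in the other 13 animals. No such SD was taken over all genes. The share of all genes more than 0.5 below was also highest in restricted 4, at 10.3% against 3.74% to 7.68% in the other 13. NDUFS8 had 51.4 CPM in restricted 4 and 80.8 to 126 CPM in the other restricted animals, against 81.8 to 120 CPM in controls, and its log2 fold change between diets turned to 0.06 without that animal, from -0.04 with it. NDUFA12 and NDUFB3 lay 0.48 and 0.41 above the median of the others in the same animal.

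Spread between animals was small for most of the set. The SD of log2 CPM within groups had a median of 0.18 over the 47 genes, against 0.23 over all genes tested, and 40 of the 47 were below that value. The 10643 other genes within the same range of abundance had a median SD of 0.21, and the 9171 within the range without NDUFA4L2 had 0.20. The largest SDs were those of NDUFA4L2 (0.62), NDUFS8 (0.32) and NDUFA12 (0.31), and the smallest those of NDUFAF6 (0.085), NDUFB7 (0.11) and NDUFAF1 (0.12).

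NDUFAF6, an assembly factor related to phytoene synthases, had 52.4, 54.4 and 63.1 CPM in restricted animals and 53.1, 55.2 and 58.8 CPM in controls. NDUFAF1, part of the assembly complex for the membrane arm, had 44.6, 49.4 and 55.8 CPM in restricted animals and 39.5, 48.1 and 51.1 CPM in controls. NDUFB7, a subunit on the intermembrane space side, had 75.3, 83.0 and 94.8 CPM in restricted animals and 78.3, 83.0 and 94.8 CPM in controls, so its groups had nearly the same range. In contrast NDUFA12 had 16.8, 27.0 and 33.8 CPM in restricted animals and 18.2, 24.0 and 30.5 CPM in controls, a wide range in both groups.

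Across animals most subunits followed each other. With group means removed, each of the 37 subunits was correlated over the 14 animals with the median of the others in each animal. The median r was 0.71, and 31 of the 37 had r over 0.5. Over genes outside the set, 6.49% (788 of 12140) had r over 0.5 with the median of all 37. NDUFB4 (0.97), NDUFA8 (0.96) and NDUFB9 (0.94) of the membrane arm had the highest values, and NDUFAB1 (0.25) and NDUFB2 (0.30) the lowest among subunits. NDUFA4 followed the subunits at 0.88 and NDUFA4L2 did not, at -0.12. Animals share library scaling, and these values are descriptions with no test.

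Of the 8 NDUFAF factors, 2 had r over 0.5, NDUFAF4 (0.67) and NDUFAF2 (0.56), and NDUFAF5 was at -0.007. Of the 12 other assembly factors, 4 had r over 0.5, among them ECSIT (0.76) and TIMMDC1 (0.72), which both act on the membrane arm. The genes of complexes II to V had a median r of 0.82, with 33 of 35 over 0.5. Restricted 1 and control 2 were also their extremes, at deviations of 0.31 and -0.26.

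**Figure D5:**
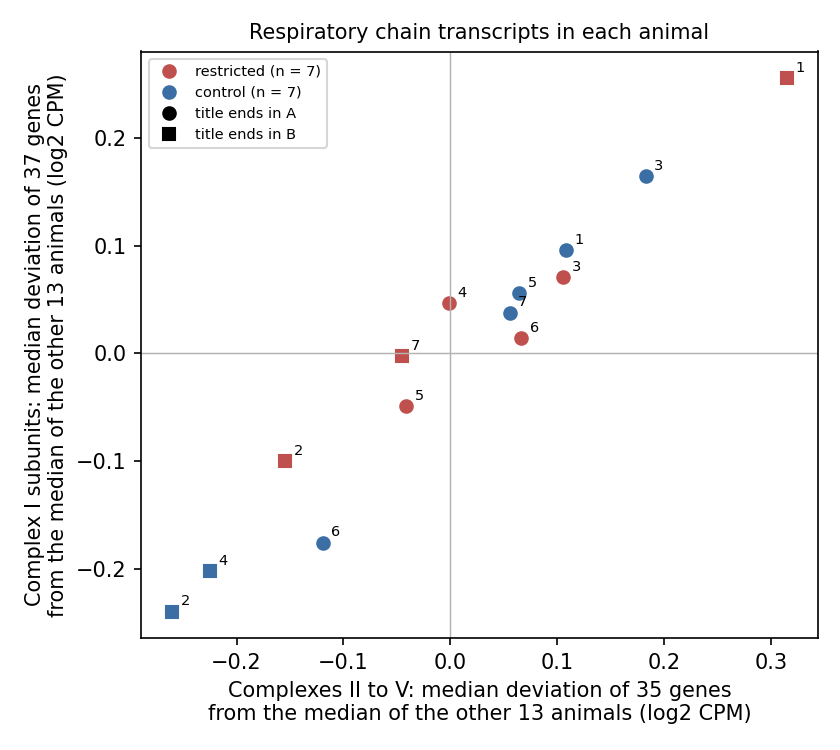
Each point is an animal, with the median deviation of 35 genes of complexes II to V across and of 37 complex I subunits upward, both in log2 CPM from the median of the other 13 animals; colours give the diet and shapes the last letter of the title. Restricted 1 lies at 0.31 and 0.26, control 2 at -0.26 and -0.24, and animals of both diets lie in between.

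The slow myosin MYH7, which marks oxidative fibres, was set against complex I levels because fibre content varies between muscle samples. MYH7 had 8663, 10758 and 13565 CPM in restricted animals and 7261, 11542 and 15889 CPM in controls (lowest, median and highest). With diet in the model, edgeR's quasi-likelihood test called 0 of the 47 slopes after adjustment, against 0.0328% of all genes tested, which were TNNT1, MYL2, MYL6B and TNNI1, all genes of the contractile apparatus of slow fibres. At an unadjusted p under 0.05, 1 of the 47 passed, with a positive slope, against 5.97% of all genes in either direction and 3.56% with a positive slope.

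That gene was NDUFB5, with a slope of 0.24 ± 0.11 log2 per log2 unit of MYH7 (standard error, unadjusted p = 0.047, edgeR), followed by NDUFC1 (0.31 ± 0.15) and NDUFS6 (0.37 ± 0.18). The slope was positive for 41 of the 47, against 50.0% of all genes, with a median of 0.11. Without restricted 1 the median was 0.033 with 32 positive, and without control 2 it was 0.041 with 30 positive. Of all genes tested, 49.9% and 50% were positive in these 2 settings. Complexes II to V had 32 of 35 positive slopes and 5 at an unadjusted p under 0.05, against 50.0% and 5.97% of all genes tested. With MYH7 as a covariate the diet estimate of NDUFC1 was 0.29 on the log2 scale, and it was 0.28 without it. The part of fibre content in the diet estimates was not tested.

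The NDUFA4 pair was compared as a ratio within each animal, since the 2 genes are paralogs. NDUFA4 had 323, 403 and 454 CPM in restricted animals and 277, 398 and 445 CPM in controls, and NDUFA4L2 had 0.691, 1.98 and 2.85 CPM in restricted animals and 0.725, 1.36 and 2.6 CPM in controls. The groups overlapped for both genes. The log2 ratio of NDUFA4L2 to NDUFA4 averaged -7.88 ± 0.66 in restricted animals and -8.01 ± 0.74 in controls (SD, n = 7 each; difference 0.13, two-sided exact permutation p = 0.727). The animals ran from 1.74 to 6.77 NDUFA4L2 reads per 1000 NDUFA4 reads in restricted animals and from 1.63 to 9.41 in controls, so the spread within a diet was far wider than the difference, which turned to -0.04 without control 3.

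NDUFA4L2 is also known as a gene of pericytes in mouse and human tissue. Its r with the 8 listed markers of smooth muscle and pericytes was taken over the 14 animals, with group means removed. These 8 genes were set as 1 list, and their r went both ways. It was 0.80 with KCNJ8, 0.69 with PDGFRB, 0.62 with NOTCH3 and 0.58 with RGS5. It was -0.48 with ACTA2, -0.47 with CNN1, -0.09 with MYH11 and -0.03 with TAGLN. No r with NDUFA4L2 over all genes is given beside these. Summed markers of smooth muscle and pericytes stood at 200 to 260 CPM in restricted animals and 177 to 298 CPM in controls. The ratio was above 1 in 1 of the 8 genes, with a median log2 fold change of -0.14. Over all genes tested these were 49.7% and -0.00079. At an unadjusted p under 0.05 by edgeR's quasi-likelihood test, 0 of the 8 passed, against 4.25% of all genes. These correlations rest on 10 to 47 reads of NDUFA4L2 per animal, and the part of these cells in its level was not tested.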

How the data were processed

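The authors deposited 1 table of raw gene counts for 14 animals, with no normalization; the deposited gene length in bases (another kind of value, not a measurement of a sample) was used for TPM. Per the submitters' processing notes, FastQC, HISAT2, featureCounts and edgeR were used with the build ARS-UCD1.2; no source used here gives their versions, the strand setting or the handling of multiply aligned reads, so overlapping, antisense or near-identical genes may be uncertain.

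Genes came from the symbols in the table, and 47 of 47 complex I symbols matched the RefSeq table of ARS-UCD2.0, whose coordinates were not used because the builds differ. The gene lists and the members were chosen with earlier results of these data known. Of 14 names searched for mitochondrially encoded subunits, 0 had reads in the table.

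The analysis used edgeR 4.0.16 in R 4.3.3 (filterByExpr, minimum count 10 and total 15; scaling by the trimmed mean of M-values; quasi-likelihood F test; Benjamini-Hochberg over all genes tested). Diet was fitted without covariates, and the MYH7 slope and title letter with diet. Standard errors are the estimate divided by the root of F. CPM is scaled likewise, and log2 CPM uses a prior count of 2. The NDUFA4L2 ratio used all 3432 assignments of the animals (smallest p 0.000583). DESeq2 1.42.0 and limma 3.58.1 were alternatives. The genes given in full were those with the 3 smallest diet p in each direction, the 3 largest and smallest SDs, the 3 smallest MYH7 p, the core subunits and the NDUFA4 pair. Other genes were named after their values were seen. The values of 1 gene of the set enter the fits and counts and are not reported here.

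The median 95% interval of a complex I gene reached 0.201 log2 to either side. Tested on simulated data of 12187 genes in 3 runs, the diet test recovered 2.67% of genes changed 1.2-fold, 58% changed 1.5-fold, 86.7% changed 2-fold and 97.3% changed 3-fold. The diet by letter term recovered 2.67% at 1.5-fold and 64% at 3-fold. Each fold had 150 changed genes over the 3 runs. Adjusted p-values are easier to pass where many genes change, so these shares can overstate recovery where few do. Counts of any 2 libraries differed by a chi-square of at least 12 per degree of freedom, so none was a copy of another.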

Additional observations from a re-analysis of the deposited data

Results flagged for a closer look

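Values far from the rest of their group were looked for in each diet group for 46 genes, the summed share of counts and the NDUFA4L2 to NDUFA4 ratio, 96 groups in all. About 1 in 20 groups would be marked by chance, or 4.8, and 10 were. The groups are not independent, since the genes follow each other between animals.

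Restricted 1 was the highest of its group in 3 of these. It had 193 CPM of NDUFA9, a subunit beside the ubiquinone path (the other restricted animals had 126 to 149 CPM), 4.77 CPM of the assembly factor NDUFAF2 (2.69 to 3.57 CPM), and 0.611% of its counts on complex I genes (0.443% to 0.509%). Restricted 4 was the lowest of its group in 3, with 62.8 CPM of NDUFS6 (the others had 92.3 to 109 CPM), 36.9 CPM of the membrane subunit NDUFB2 (57.2 to 71.2 CPM) and 18.1 CPM of NDUFAF8 (29.4 to 37.7 CPM). Restricted 2 had the lowest NDUFA4, at 323 CPM against 398 to 454 CPM, and restricted 6 the highest NDUFB1, a small membrane subunit, at 45.9 CPM against 39 to 41.2 CPM.

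In controls, control 5 had 4.6 CPM of NDUFAF2 where the others had 2.5 to 3.33 CPM. Control 3 had 43.6 CPM of NDUFAF8 where the others had 29.8 to 34.7 CPM.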

How the results depend on the processing

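The 0 calls of complex I genes after adjustment held under all alternatives of the 3 fits, DESeq2 (diet only) and limma voom included. Over all genes tested, the alternatives called 0 to 1 genes for diet, 0 to 6 for the MYH7 slope and 0 to 2 for the title letter. The 2 genes at an unadjusted p under 0.05 between diets became 1 with library size scaling or without restricted 1 and 4, 0 among titles ending in A and 8 among those ending in B (median 0.2735), and 1 to 4 when each animal was left out. Over all genes tested, these 4 settings gave 583 of 12187, 723 of 12341, 487 of 12219 and 584 of 12637 in that order. Leaving out each animal gave 472 to 692 of all genes. For the MYH7 slope the count of 1 became 0 with relative log expression scaling, library size scaling, no diet term or both covariates, 2 with no filter or limma voom, 7 with TNNI1, and 0 to 5 without single animals. Over all genes tested, the settings with 0 gave 687 to 743 of 12186. No filter gave 1018 of 17884, limma voom 887 of 12186 and TNNI1 864 of 12186. Leaving out single animals gave 589 to 806 of all genes. For the title letter the count of 3 became 0 with library size scaling and ranged from 0 to 13 without single animals. Over all genes tested, library size scaling gave 958 of 12187, and leaving out single animals gave 579 to 806. Without single animals the median of the MYH7 slope ran from 0.03314 to 0.1727.

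Small diet estimates changed sign, the cause of which was not tested. With library size scaling NDUFAF6 and NDUFS3 were at -0.0228 and -0.0232. Among titles ending in A, NDUFAF6, NDUFV2 and NDUFS3 were at -0.0321, -0.048 and -0.0668. Among those ending in B, NDUFAF8, NDUFS6, NDUFA2, NDUFS8, NDUFB7, NDUFS7 and NDUFV1 were at 0.0486, 0.195, 0.00511, 0.316, 0.0784, 0.142 and 0.246. NDUFB7 was at 0.000398 with limma voom and NDUFV1 at 0.00241 with the first letter as covariate. Without control 7, restricted 4 and restricted 7, NDUFS8, NDUFB7 and NDUFV1 were at 0.113, 0.0157 and 0.0457; without restricted 1 and 4, NDUFV2 and NDUFS3 were at -0.0131 and -0.0433. Without single animals NDUFAF6 ran from -0.0064 to 0.0422, NDUFS3 from -0.0368 to 0.0737, NDUFS8 from -0.129 to 0.0606, NDUFB7 from -0.043 to 0.0121, NDUFV1 from -0.0879 to 0.0314, and the NDUFA4L2 ratio from -0.0376 to 0.357.

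No paired analysis was possible because the titles share no replicate numbers that tie animals of the diets, and numbers given by order pair nothing. Depth limits NDUFA4L2 and NDUFAF2 most, at 10 to 47 and 39 to 76 reads.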

Other observations

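The genes most like the complex I subunits across the 14 animals were looked for outside the set. The measure was r with the median of the 37 subunits in each animal after removal of group means. The genes were named after these values were seen. The 10 highest were ATP5PF (0.96), COX4I1 (0.95), ATP5PD (0.93), COX5B (0.93), MGC148714 (0.91), CYC1 (0.91), SUCLG1 (0.91), GTF2A2 (0.91), COX7A1 (0.90) and UQCRC2 (0.90). Of these, 7 are subunits of other parts of the chain: ATP5PF and ATP5PD of ATP synthase, COX4I1, COX5B and COX7A1 of complex IV, and CYC1 and UQCRC2 of complex III. SUCLG1 belongs to succinyl-CoA ligase of the citric acid cycle and GTF2A2 to the general transcription factor TFIIA. Complexes II to V had 33 of 35 genes lower in titles ending in B, with a median log2 fold change of -0.11. Beside this stood 33 of 47 for complex I and 50.9% of all genes tested.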
